A study of Mus musculus with 3 samples.

Results

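The genes examined here are mutated in Hermansky-Pudlak syndrome or Chediak-Higashi syndrome, or in the mouse coat color mutants that model them, and their products sort cargo to melanosomes. They were chosen by symbol and not by a cut on their values, although earlier results of these data were known. The genes are *Hps1*, *Hps3*, *Hps4*, *Hps5*, *Hps6*, *Dtnbp1*, *Ap3b1*, *Ap3d1*, *Vps33a* and *Lyst*, 10 of the 22698 Ensembl genes in the files. Expression was measured by RNA-seq in melan-a cells, an immortalized line of mouse melanocytes labelled as C57BL/6J in background and as derived from Ink4a-ARF-/- mice. The cells were grown with a phorbol ester and cholera toxin and received no treatment, so all 3 replicates, numbered 1, 3 and 4, belong to 1 condition. The labels do not say whether the replicates came from separate cultures, and the spread between them may be technical. Values are FPKM, that is, reads divided by gene length and by library size, a scale meant for comparing genes of different length. Such comparisons depend on the length used, which is not given for genes with several transcripts.

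Pigment is made in the melanosome, a lysosome-related organelle that receives its enzymes from endosomes. AP-3, a coat adaptor, and BLOC-1 load cargo such as tyrosinase and TYRP1 onto carriers that leave the endosome, and BLOC-2 guides these carriers to the maturing melanosome. BLOC-3 switches on the small GTPases RAB32 and RAB38 by exchanging their nucleotide. VPS33A is the SNARE-binding subunit of the HOPS and CORVET tethers, and LYST is a very large protein with a BEACH domain whose loss gives giant lysosome-related granules. The mouse mutants carry the names pale ear (*Hps1*), cocoa (*Hps3*), light ear (*Hps4*), ruby-eye 2 (*Hps5*), ruby-eye (*Hps6*), sandy (*Dtnbp1*), pearl (*Ap3b1*), mocha (*Ap3d1*), buff (*Vps33a*) and beige (*Lyst*).

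The libraries held an estimated 53900000, 47000000 and 66300000 reads in replicates 1, 3 and 4, and 3 reads on any of the 10 genes came to at most 0.0473 FPKM. The melanocyte identity of the cells was borne out by 7 of 7 markers, whose means ran from 22.1 FPKM for *Mitf* to 3144 for *Tyrp1*. Of 4 keratinocyte and 4 leukocyte markers, none reached 1 FPKM in all replicates, and of 4 fibroblast markers only *Col1a1* did, at 1.54 FPKM. The summed levels ran from 0.36 to 0.70 FPKM for the keratinocyte, 0.79 to 1.61 for the leukocyte and 1.53 to 1.93 for the fibroblast markers, with *Trp63*, *Ptprc* and *Lum* listed at 0. In such bulk RNA, fewer cells of a type and less RNA per cell cannot be told apart. *Cdkn2a*, the locus named in the label, stood at 20.02 ± 3.97 FPKM (SD, n = 3). Which bases the Ink4a-ARF allele lacks is not given in the sources used here, so this level does not check the label.

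All 10 genes were at or above 1 FPKM in all 3 replicates, as were 10011 of the 22698 genes of the files (44.1%). Their mean levels spanned 28.5-fold, from 63.3 FPKM for *Dtnbp1* to 2.22 for *Lyst*, around a median of 9.40 FPKM. The median over all genes at or above 1 FPKM was 11.2 FPKM, and the median percentile of the 10 among these expressed genes was 44.3. The order by mean was *Dtnbp1*, *Ap3d1*, *Ap3b1*, *Vps33a*, *Hps5*, *Hps4*, *Hps1*, *Hps6*, *Hps3* and *Lyst*. The AP-3 subunits and dysbindin headed this order, *Vps33a* followed, and the genes of BLOC-2, BLOC-3 and *Lyst* made up the lower part. Of the 9 pairs of neighbours, 5 had replicate ranges that did not overlap. The ranges overlapped for *Dtnbp1* and *Ap3d1*, for *Hps4* and *Hps1*, for *Hps1* and *Hps6*, and for *Hps3* and *Lyst*. In the last of these pairs *Hps3* was nevertheless the higher gene in every replicate. The order of the lower genes depends on the gene length, as explained with BLOC-2. On the length of the longest coding transcript, *Hps1* (14.65 FPKM) came above *Hps5* (14.01), and *Hps3* (7.92) was level with *Hps6* (7.90). Neighbours with separate ranges then numbered 4. With 3 replicates, an exact two-sided sign-flip permutation test of the ratio of a pair of genes cannot go below p = 0.25, so the comparisons between genes are given by their values and spread.

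**Figure D1:**
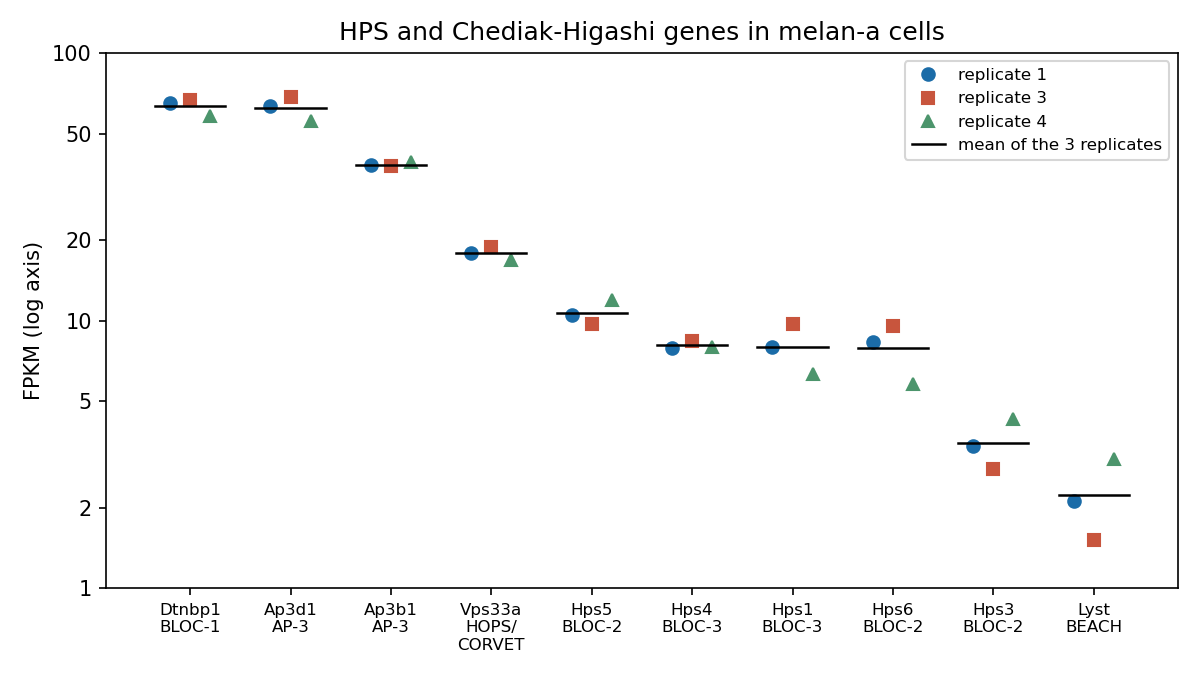
Levels of the 10 genes in melan-a cells. Each point is the FPKM of 1 replicate on a log axis, the bar is the mean of the 3 replicates, and the complex of each gene stands under its symbol. *Dtnbp1* and *Ap3d1* lie between 55.6 and 68.3 FPKM, while *Lyst* lies between 1.51 and 3.05 FPKM and has the widest relative spread.

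The promoters of 4 of the 10 genes share an exact E-box of the form CACGTG, a sequence recognised by MITF and its relatives TFEB and TFE3. The windows searched reach from 250 bases before to 50 bases after the RefSeq start, and all 11 windows of the 10 genes matched mm9 exactly once. CACGTG occurred in 4 of these 11 windows and in 7.15% of 32851 windows over all genes. The stretches that hold it are shown because they place the motif against the RefSeq start of each gene. CACGTG is in capitals, and the stretches are on the coding strand with mm9 coordinates.

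Hps1, chr19:42854464-42854494, minus strand: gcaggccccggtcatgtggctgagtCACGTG

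Hps3, chr3:19935311-19935350, minus strand: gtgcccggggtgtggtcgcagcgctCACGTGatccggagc

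Hps5, chr7:54051413-54051501, minus strand: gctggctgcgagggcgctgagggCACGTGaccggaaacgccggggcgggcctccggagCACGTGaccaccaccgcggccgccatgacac

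Vps33a, chr5:124023025-124023077, minus strand: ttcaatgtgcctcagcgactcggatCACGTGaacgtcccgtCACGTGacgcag

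With the RefSeq start counted as 0, the motif began at -1 in *Hps1*, at -15 in *Hps3*, and at -28 and -12 in *Vps33a*. In *Hps5* it began at -227 and -192. The Ensembl model of *Hps5* starts further upstream, at 54051434, inside the stretch shown, so both sites lie nearer to that start. The second site of *Vps33a* is preceded by GT and followed by AC, which makes it the longer palindrome of the CLEAR element of lysosomal genes, held by 0.33% of all windows. The related E-box CATGTG was found only in *Hps1* among the 10 genes, against 14.2% of all windows. The TFAP2 motif GCCNNNGGC was present in *Hps1*, *Hps4*, *Hps5* and *Hps6*, that is, in 4 of 11 windows against 16.6% of all. Motifs were searched on both strands. A match describes the letters of the window and shows no binding.

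BLOC-1 is represented by *Dtnbp1*, which encodes dysbindin (ENSMUSG00000057531, mm9 chromosome 13, 45017454 to 45097509, minus strand, 10 exons). It measured 65.03, 66.85 and 58.09 FPKM in replicates 1, 3 and 4, with a mean of 63.3 ± 4.62 (SD, n = 3), which gave it rank 1053 among all genes. The remaining 7 subunits of the complex were far lower in each replicate, with means from 3.42 FPKM for *Bloc1s1* to 20.04 for *Snapin*. *Dtnbp1* exceeded *Snapin*, which encodes a SNARE-binding subunit, by a log2 ratio of 1.66 ± 0.29 (3.17-fold). It exceeded *Bloc1s6*, the gene mutated in pallid mice, by 3.10 ± 0.15 (8.58-fold). With the length of the longest coding transcript, explained with BLOC-2, the excess over the 7 genes ran from 2.67-fold for *Snapin* to 15.5-fold for *Bloc1s4*. The subunit genes *Bloc1s3* and *Bloc1s5*, which also underlie Hermansky-Pudlak phenotypes, had means of 7.49 and 6.82 FPKM, and *Bloc1s4* of 4.10. The low value of *Bloc1s1* is uncertain, since 55.9% of its exon bases also belong to *Rdh5* on the same strand. No exon base of *Dtnbp1* is shared with another annotated gene, and its joined exons are as long as its longest coding transcript.

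The genes of BLOC-2 differed from each other by up to 3.10-fold on the deposited scale. *Hps5* (ENSMUSG00000014418, chromosome 7, 54015836 to 54051434, minus strand) had 10.5, 9.70 and 11.9 FPKM in replicates 1, 3 and 4, a mean of 10.7 ± 1.11 (SD, n = 3). *Hps6* (ENSMUSG00000074811, chromosome 19, 46077968 to 46080663, plus strand), a gene of 1 exon, had 8.35, 9.57 and 5.79 FPKM, a mean of 7.90 ± 1.93. *Hps3* (ENSMUSG00000027615, chromosome 3, 19895945 to 19935315, minus strand) was the lowest of the complex in every replicate. Its values were 3.41, 2.79 and 4.28 FPKM, with a mean of 3.49 ± 0.75.

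The log2 ratio of *Hps3* to *Hps5* was -1.62, -1.80 and -1.48 in replicates 1, 3 and 4, a mean of -1.63 ± 0.16 (SD, n = 3). That of *Hps3* to *Hps6* was more variable, at -1.29, -1.78 and -0.44. *Hps5* and *Hps6* were nearly level in replicate 3 and furthest apart in replicate 4, with log2 ratios of 0.33, 0.02 and 1.04. The size of the *Hps3* deficit depended on the length by which the level is divided. *Hps3* has 12 annotated transcripts, whose joined exons (9103 bases) are 2.27 times as long as its longest coding transcript (4016 bases). The same figure is 1.31 for *Hps5* and 1 for *Hps6*. Divided by the longest coding transcript, *Hps3* rose to 7.92 FPKM, level with *Hps6* (log2 ratio 0.012), and its log2 ratio to *Hps5* became -0.84. Which length the authors used for genes with several transcripts is not given in the sources used here. A second identifier with the symbol *Hps3* (ENSMUSG00000078774, 63 bases of exon) was at 0, 0 and 0.48 FPKM, or an estimated 2 reads in replicate 4, and was not added to the first.

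The partners of BLOC-3 had nearly equal mean levels on the deposited scale. *Hps1* (ENSMUSG00000025188, chromosome 19, 42829595 to 42854468, minus strand) had 7.96, 9.74 and 6.29 FPKM in replicates 1, 3 and 4, a mean of 7.997 ± 1.73 (SD, n = 3). *Hps4* (ENSMUSG00000042328, chromosome 5, 112772115 to 112807434, plus strand) had 7.87, 8.42 and 7.98 FPKM, a mean of 8.09 ± 0.29. Their log2 ratio was 0.02, 0.21 and -0.34, a mean of -0.04 ± 0.28, with *Hps1* higher in 2 of 3 replicates. Without replicate 4 the mean was 0.11, and without replicate 3 it was -0.16. This balance, too, moved with the length. The joined exons of *Hps1*, from 9 transcripts, are 1.83 times as long as its longest coding transcript, against 1.19 times for *Hps4*, and on the shorter length *Hps1* exceeded *Hps4* by a log2 ratio of 0.59 (1.504-fold). The substrates of BLOC-3 were much higher than the exchange factor itself, with means of 254 ± 18.8 FPKM for *Rab38* and 56.7 ± 3.37 for *Rab32*.

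The AP-3 adaptor is a heterotetramer of a β, a δ, a μ and a σ subunit. Its δ subunit gene, *Ap3d1* (ENSMUSG00000020198, chromosome 10, 80169723 to 80204956, minus strand, 31 exons), had 63.3, 68.3 and 55.6 FPKM in replicates 1, 3 and 4, a mean of 62.4 ± 6.40 (SD, n = 3). The gene of the ubiquitous β subunit, *Ap3b1* (ENSMUSG00000021686, chromosome 13, 95128915 to 95336271, plus strand, 27 exons), had 38.0, 37.7 and 39.1 FPKM, a mean of 38.3 ± 0.76. *Ap3b1* varied less between replicates than any of the other 9 genes, with a coefficient of variation of 1.99%. *Ap3d1* exceeded it in every replicate, with log2 ratios of *Ap3b1* to *Ap3d1* of -0.73, -0.86 and -0.51 (mean -0.70 ± 0.18, or 1.62-fold). For both genes the joined exons equal the longest coding transcript, so this ratio was the same on either length.

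The smaller AP-3 subunits, each encoded by a pair of paralogs, were lower than both large ones. Summed over paralogs, the μ genes reached 26.11, 24.99 and 28.04 FPKM in replicates 1, 3 and 4 and the σ genes 28.2, 30.2 and 26.3. *Ap3s1* exceeded *Ap3s2* by a log2 ratio of 0.39 ± 0.10, at means of 16.0 and 12.2 FPKM. *Ap3b2* and *Ap3m2* encode subunits known from the neuronal form of AP-3. *Ap3b2* was at 0.03, 0.09 and 0.05 FPKM, under 1 FPKM in all replicates. *Ap3m2*, in contrast, had 16.4, 17.6 and 16.3 FPKM and was higher than the ubiquitous *Ap3m1*, at 9.70, 7.44 and 11.7 FPKM, in 3 of 3 replicates (log2 ratio 0.83 ± 0.38). Of 4 neuronal markers, *Snap25* and *Syt1* were listed at 0 in every replicate and *Rbfox3* was at most at 0.01 FPKM, while *Tubb3* had a mean of 216 FPKM. On the opposite strand, exons of *Vcl* cover 29.8% of the exon bases of *Ap3m1*, and whether the counting used strand is not stated.

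*Vps33a* (ENSMUSG00000029434, chromosome 5, 123978773 to 124023024, minus strand, 13 exons) had 17.9, 18.8 and 16.9 FPKM in replicates 1, 3 and 4, a mean of 17.9 ± 0.97 (SD, n = 3). Among the core subunits that HOPS and CORVET share, it was level with *Vps11* and above *Vps16* and *Vps18* in every replicate. *Vps11* had a mean of 18.1 ± 1.56 FPKM, and the log2 ratio of *Vps33a* to it was -0.02 ± 0.06. *Vps16*, whose product binds VPS33A directly, had 12.9 ± 0.74 FPKM and *Vps18* 13.1 ± 2.25, and *Vps33a* exceeded them by 1.38-fold and 1.37-fold. The HOPS-specific genes *Vps39* and *Vps41* stood at 19.7 ± 0.68 and 25.8 ± 3.89 FPKM. The CORVET-specific genes *Vps8* and *Tgfbrap1* were lower than *Vps33a* in every replicate, by 2.60-fold and 2.35-fold, with means of 6.86 and 7.60 FPKM. On the length of the longest coding transcript these folds fell to 1.51 and 1.96, and *Vps39* came to exceed *Vps33a* by 2.16-fold in place of 1.101-fold. The excess of *Vps33a* over *Vps16* and *Vps18* fell to 1.17-fold and 1.16-fold on that length. These are log2 ratios of 0.23 and 0.22, against SDs over replicates of 0.15 and 0.19. The paralog *Vps33b*, which acts in a separate complex with the product of *Vipas39*, had 4.54 ± 0.64 FPKM, 3.96-fold below *Vps33a*, whereas *Vipas39* itself had 21.1 ± 0.14.

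**Figure D2:**
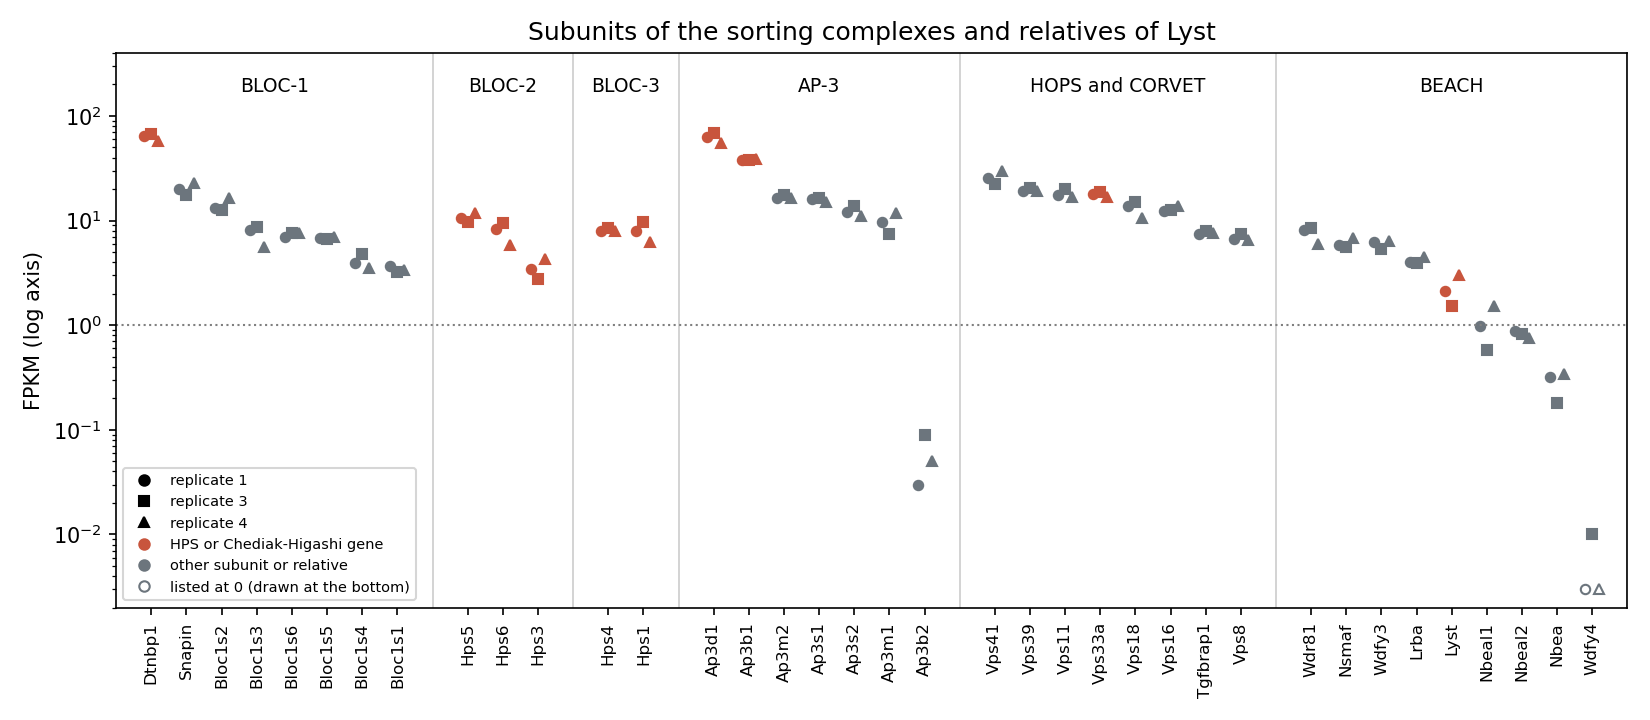
Levels of all listed subunits of BLOC-1, BLOC-2, BLOC-3, AP-3, HOPS and CORVET, and of the BEACH-domain genes. Points are FPKM per replicate on a log axis, the 10 disease genes are in red, and the dotted line marks 1 FPKM. *Dtnbp1* stands above the other BLOC-1 subunits (3.42 to 20.04 FPKM), *Ap3d1* and *Ap3b1* above the μ and σ genes, and *Vps33a* in the middle of its complexes.

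*Lyst* (ENSMUSG00000019726, chromosome 13, 13682676 to 13869710, plus strand) has the longest joined exons of the 10 genes, 11814 bases in 54 exons. It was the lowest of them, with 2.11, 1.51 and 3.05 FPKM in replicates 1, 3 and 4, a mean of 2.22 ± 0.78 (SD, n = 3). Its coefficient of variation, 34.9%, was also the widest of the 10. An estimated 838 to 2389 reads lay behind these values, for which counting alone gives 2.56%, so the depth does not limit this gene. Of the 9 BEACH-domain genes listed, 5 were at or above 1 FPKM in all replicates. *Wdr81*, *Nsmaf*, *Wdfy3* and *Lrba*, the last of them a regulator of CTLA4 traffic, had means of 7.50, 6.09, 5.98 and 4.15 FPKM and were higher than *Lyst* in every replicate. *Nbeal1*, *Nbeal2* and *Nbea* had means of 1.03, 0.82 and 0.28 FPKM, and *Wdfy4* was at most at 0.01.

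The other adaptors give a scale for AP-3. The 7 AP-3 genes had a median level of 16.0 FPKM, against 53.1 for 5 genes of AP-2, which acts at the plasma membrane, 17.6 for 8 genes of AP-1, which sorts at the trans-Golgi and endosomes, and 4.24 for 4 genes of AP-4. Of these genes, 6 of AP-3, 5 of AP-2, 6 of AP-1 and 3 of AP-4 were at or above 1 FPKM in all replicates, so the medians mix expressed and unexpressed genes. *Ap3d1* was within the range of the large AP-2 subunit genes (30.5 to 70.1 FPKM for *Ap2a2*, *Ap2b1* and *Ap2a1*). *Ap3b1* was close to its AP-1 counterpart *Ap1b1* (35.8 ± 5.86 FPKM) on the deposited scale. On the length of the longest coding transcript *Ap1b1* rose to 44.5 ± 7.29 FPKM and *Ap3b1* stayed at 38.3. Both AP-3 genes exceeded every AP-4 gene, of which *Ap4s1* was the highest at 7.66 FPKM. The epithelial μ subunit gene of AP-1, *Ap1m2*, had a mean of 0.023 FPKM.

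Among the 10 genes, the direction of the difference between replicates 3 and 4 was ordered by base composition. The 4 genes that were lower in replicate 3 than in replicate 4, *Lyst*, *Hps3*, *Hps5* and *Ap3b1*, had an exon GC content of 41.8% to 48.3%. The 6 genes that were higher in replicate 3, *Hps6*, *Hps1*, *Ap3d1*, *Dtnbp1*, *Vps33a* and *Hps4*, had 50.6% to 59.8%. Over the 10 genes, which share the same libraries and depth, Spearman's rho between GC content and the log2 ratio of replicates 3 and 4 was 0.86, given as a description. The ratio of replicate 3 to replicate 4 reached 1.65 for *Hps6* and 1.55 for *Hps1* and fell to 0.65 for *Hps3* and 0.50 for *Lyst*. These 4 of 10 genes differed by 1.5-fold or more, against 18.6% of the 10011 genes at or above 1 FPKM. Of the 4, 2 were lower in replicate 3, as were 12.2% of those genes, and 2 were higher, as were 6.38%. The fold of 1.5 was set after the values were seen, and *Hps1* and *Hps3* pass it narrowly. These shares are a description and show no enrichment.

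**Figure D3:**
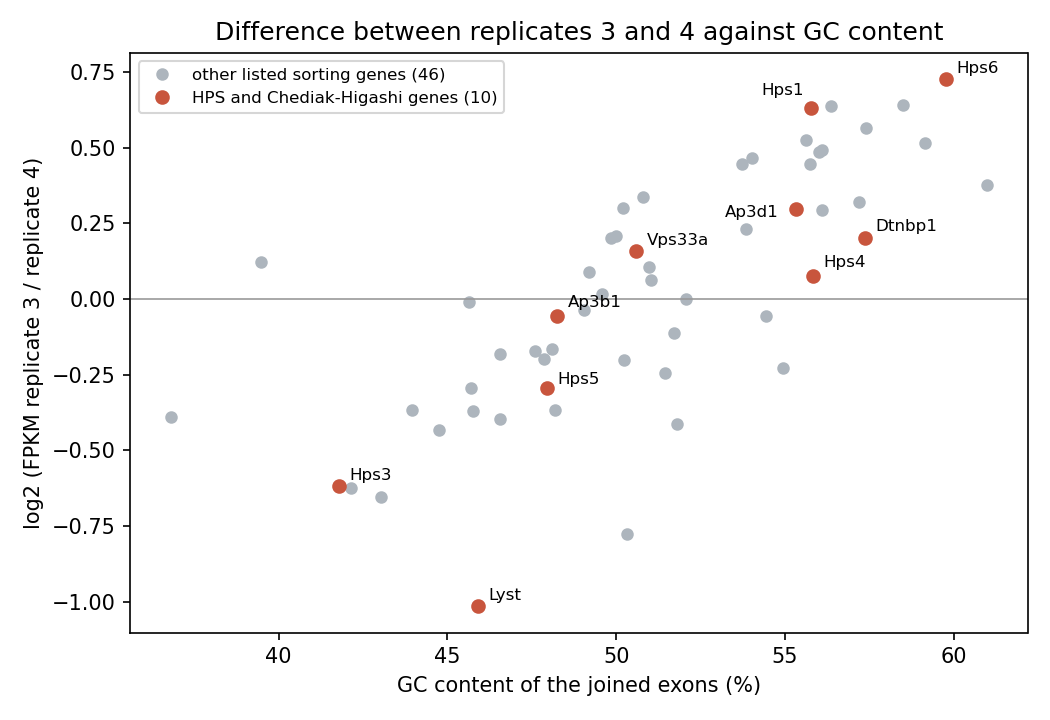
Log2 ratio of FPKM in replicate 3 to replicate 4 against the GC content of the joined exons, in percent. Red points are the 10 disease genes and grey points the 46 other listed sorting genes at or above 1 FPKM in all replicates. *Hps3* and *Lyst* lie at -0.62 and -1.01, *Hps1* and *Hps6* at 0.63 and 0.73, and *Hps4* at 0.08 although its GC content is that of *Hps1*.

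When the trend on GC content over all expressed genes was removed from each replicate, the coefficient of variation became smaller for 9 of the 10 genes, and its median fell from 10.3% to 6.72%. Before the correction, the median over the 10011 genes at or above 1 FPKM was 11.4%. The trend was fitted on these same libraries, and the share of all genes with a smaller variation afterwards was not computed. The count is therefore not read as a trait of the 10 genes. The exception among the 10 was *Hps4*, which went from 3.60% to 9.39%. *Lyst* still varied by 26.9%, with corrected values of 2.12, 1.64 and 2.82 FPKM in replicates 1, 3 and 4. *Hps3*, by contrast, came to 3.43, 3.39 and 3.64 FPKM (3.92%), and *Ap3d1* to 63.1, 61.8 and 62.5 FPKM (1.09%).

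After this correction the ratio of the large AP-3 subunits and those of BLOC-2 varied less between replicates. That of BLOC-3 could hardly change, because its genes have nearly the same GC content. The SD of the log2 ratio of *Ap3b1* to *Ap3d1* fell from 0.18 to 0.035, that of *Hps3* to *Hps5* from 0.16 to 0.043, that of *Hps3* to *Hps6* from 0.68 to 0.17 and that of *Hps5* to *Hps6* from 0.52 to 0.20. The mean ratios were nearly the same before and after, for example -1.63 and -1.62 for *Hps3* to *Hps5*. This follows from the correction, which acts on differences from the mean over replicates. It cannot test an effect of GC content that all replicates share. Ratios with the AP-3 σ subunits went the other way in part. The coefficient of variation of *Ap3s1*, whose exons have 39.5% GC, rose from 4.39% to 25.5%. The SD of its log2 ratio rose from 0.088 to 0.38 against *Ap3d1*, from 0.093 to 0.35 against *Ap3b1* and from 0.099 to 0.24 against *Ap3s2*, and that of *Ap3d1* to *Ap3s2* rose from 0.045 to 0.15. For *Hps1* and *Hps4*, with 55.8% GC each, the SD was 0.28 before and after the correction. This was fixed in advance, since the correction depends on GC content alone. What moved *Hps1* apart from *Hps4* between the replicates was not tested.

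**Figure D4:**
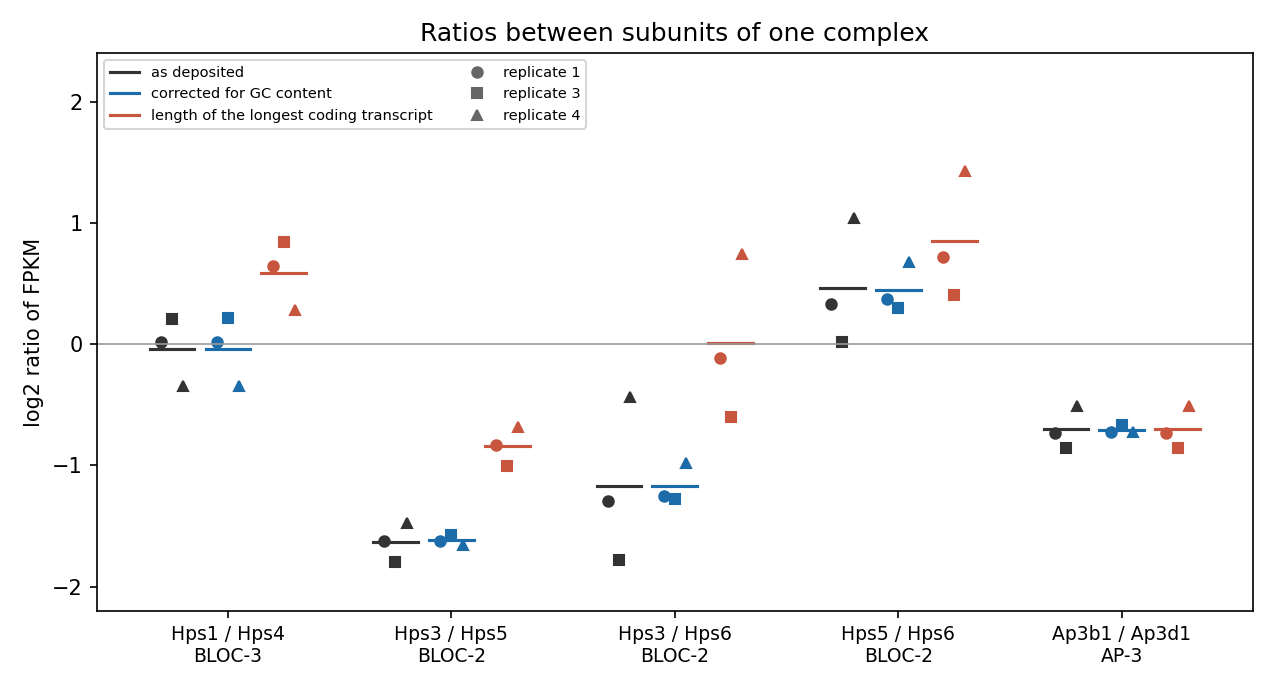
Log2 ratios of FPKM between subunits of 1 complex, for each replicate (points) with their mean (bar), as deposited, after correction for GC content and with the length of the longest coding transcript. The correction narrows *Ap3b1* over *Ap3d1* and the BLOC-2 ratios. It can hardly act on *Hps1* over *Hps4*, whose GC contents are nearly the same, and the SD stays at 0.28. The other length moves *Hps3* over *Hps6* from -1.17 to 0.012.

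Genes of the same complex list kept their ratio over replicates little better than genes of different lists. Among 43 genes of these lists at or above 1 FPKM, the median SD of the log2 ratio was 0.18 for 104 pairs within a list and 0.20 for 799 pairs between lists. The median difference in GC content was 4.93 and 4.94 percentage points. HOPS and CORVET formed 1 list, and paralogs such as *Ap3m1* and *Ap3m2* shared a list, so some pairs within a list are not partners in 1 complex. Among them is the pair with the smallest SD, *Vps39* and *Tgfbrap1* (0.015). The pairs share genes and libraries, and no test was made. Without replicate 4 the medians were 0.097 and 0.12, and after the GC correction 0.12 and 0.14. For each of the 10 genes, the listed gene whose ratio to it varied least over the 3 replicates was sought among 55 others. These were *Ap2b1* for *Dtnbp1*, *Snap23* for *Hps3*, *Nsmaf* for *Hps5*, *Ap2a1* for *Hps6*, *Ap2s1* for *Hps1*, *Tgfbrap1* for *Hps4*, *Bloc1s5* for *Ap3b1*, *Ap2m1* for *Ap3d1*, *Ap3s1* for *Vps33a* and *Ap4m1* for *Lyst*. None of them belongs to the complex of its partner. Few of the 55 genes searched do, since the lists hold 2 genes for BLOC-3, 3 for BLOC-2 and at most 8 for any other complex. *Lyst* has no complex list. The share to be met without any tie was not computed, so nothing about the complexes is drawn from this. The SD of the log2 ratio to the nearest gene ran from 0.0072 for *Hps4* to 0.16 for *Lyst*.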

How the data were processed

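The authors deposited FPKM values, 1 per Ensembl gene and replicate, with TMM scaling and 2 decimals. They sequenced stranded mRNA libraries, trimmed the first bases, aligned with STAR 2.3.0e to mm9, removed rRNA reads and counted with HTSeq 0.5.3p3 on Ensembl genes. How counts became FPKM is not given in the sources used here. Ratios are log2 ratios within a replicate, without a pseudocount. Library size was estimated as the number at which low values of genes with 1 transcript shorter than 400 bases come closest to whole reads (60 to 78 genes, mean distance 0.036 to 0.053 reads). Only 3 to 5 genes could tell lengths apart for genes with several transcripts, so the length used was not settled, and estimated reads, which cover counting error only, refer to joined exons. Gene models and mm9 sequence came from GENCODE (Ensembl release 65), which lacks 374 genes of the files, and promoter windows from RefSeq (GRCm38.p6), placed on mm9 by exact match. The GC correction removes from each replicate the trend of log2 FPKM over the mean of the replicates in 20 bins of exon GC content. The genes, lists and tests were chosen with earlier results of these data known, and the fold of 1.5 between replicates after the values were seen. The genes named are the 10 disease genes, the genes of the complex, relative and marker lists, and the listed gene nearest to each of the 10. *Vamp7* was not used here. Alternatives were each replicate left out, the median over replicates, values rescaled to sum to 1000000, the GC correction, a pseudocount of 1, the longest coding transcript, other detection levels and ranking among expressed genes. The scripts (Python 3.11.15, numpy 2.4.6, pandas 2.3.3, scipy 1.17.1, matplotlib 3.10.9) were tested on simulated data.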

Additional observations from a re-analysis of the deposited data

How the results depend on the processing

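The length by which a level is divided decided whether *Hps3* was lower than *Hps6* on average. With the longest coding transcript, the log2 ratio of *Hps3* to *Hps6* went from -1.17 to 0.012, that of *Hps3* to *Hps5* from -1.63 to -0.84 and that of *Hps1* to *Hps4* from -0.04 to 0.59, and the median level of the 10 genes rose to 14.3 FPKM. A pseudocount of 1 gave -1.39 for *Hps3* to *Hps5*. Rescaling each replicate to a sum of 1000000 moved the median level to 24.97, a change of unit, and ranking among expressed genes only moved the median percentile of the 10 genes from 75.4 to 44.3. The other recomputed ratios between the 10 genes, and their median level, changed by less than the spread between replicates, and the counts by less than 1.5 times. For a ratio or the level of a single gene, part of this was fixed in advance. Leaving out a replicate or taking the median cannot shift a mean over the replicates by a full SD. Rescaling cannot change a ratio within a replicate. With a replicate left out, *Hps3* to *Hps6* lay between -1.54 and -0.86 and *Hps5* to *Hps6* between 0.18 and 0.69. The median SD of ratios within and between complex lists, which has no spread between replicates of its own, went from 0.18 and 0.20 to 0.097 and 0.12 without replicate 4. Levels of single genes moved beyond that spread 14 times, 10 of them by the rescaling and 4 by the length (*Hps1*, *Hps3*, *Hps4* and *Hps5*), and 56 times they did not. At 5 FPKM in all replicates, 8 of the 10 genes remained. No paired analysis was possible because the samples form 1 group. Depth limits none of the 10 genes, and the number of replicates limits every comparison.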

Other observations

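Genes whose products act with these complexes were also expressed. *Pi4k2a*, which encodes a lipid kinase that is cargo of AP-3, had 13.4 ± 2.41 FPKM (SD, n = 3). Of the endosomal SNARE genes, *Stx12* had 23.87 ± 3.004 FPKM, *Snap23* 10.97 ± 2.33 and *Stx3* 5.29 ± 0.82. *Rabggta*, which encodes a subunit of the enzyme that prenylates Rab proteins and is mutated in gunmetal mice, had 10.8 ± 1.26 FPKM. *Trappc6a*, a tethering gene with a mosaic coat color mutant, had 21.59 ± 3.002 FPKM. The log2 ratio of *Rab38* to *Rab32* was 2.21, 2.13 and 2.16 in replicates 1, 3 and 4 (SD 0.040).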
